A study of Mus musculus with 1152 samples.

Results

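Leukocyte adhesion molecules were examined as a set of 6 genes, Icam1, Icam2, Vcam1, Selp, Sele and Cd44, chosen by name from the 23168 genes of the expression table and followed in every cell analysed, 56.9% of those labelled. The cells were lymphatic endothelial cells (LECs) of the nasopharyngeal lymphatic plexus (NPLP), the lymphatic network of the nasopharyngeal mucosa through which cerebrospinal fluid can drain. They came from aged c57bl/6 mice, for which the labels name no age in months, and were isolated from pooled mucosa by fluorescence-activated sorting of CD31+ PDPN+ cells into single wells for Smart-seq3, a full-length single-cell RNA-seq method. All cells belonged to this 1 group, with no control group and no label for the animal, so the pool counted as 1 sample, no test between conditions was possible, and every comparison below is between cells or genes of that pool.

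Leukocytes leave blood by steps that use these proteins. The selectins, P-selectin (Selp) and E-selectin (Sele), catch and roll leukocytes on endothelium, and the immunoglobulin-family molecules ICAM1, ICAM2 and VCAM1 bind leukocyte integrins for firm adhesion and crawling. ICAM2 is held at endothelial junctions in resting cells, whereas Icam1, Vcam1 and Sele are textbook targets of NF-kB and rise with inflammatory cytokines. CD44 is a receptor for hyaluronan, a role taken in lymphatic endothelium by LYVE1.

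The LEC label was checked against its markers. Flt4 and Mmrn1 had reads in 100% of cells, Prox1 in 97.1% and Pdpn in 94.8%, and all 9 LEC markers had reads in at least 87.7%. Of 10 blood endothelial markers, Flt1 had reads in 2.44% of cells, Ackr1 in 1.98% and Sox17 in 1.98%, but Emcn reached 96.2% and Lrg1 98.9%. The 10 haematopoietic markers had reads in 0.457 to 9.60% of cells, with Ptprc (CD45) in 0.915%, and the 3 platelet markers in 0.457 to 2.90%. Shares of the 6 fibroblast markers ran from 1.68 to 30%, with Dcn highest. Those of the 6 mural markers ran from 0.610 to 46.2%, with Kcnj8 highest. A cell had between 7046 and 10727631 reads (median 148202). The shares of the 6 genes are therefore also given after the 86.6% of cells with at least 20000 reads had been thinned to that depth, and values given at 20000 reads are these thinned ones. Shares of the other genes use all reads unless so marked. Intervals are exact 95% binomial intervals and cover counting error only.

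Promoter sequences from RefSeq (GRCm38.p6, 250 bases before to 50 after the start) were held for 4 of the 6 genes, Icam1, Selp, Sele and Cd44, with no entry for Icam2 and Vcam1. They are shown for Icam1 and for both selectins, because Icam1 and, less strongly, Selp varied with the NF-kB genes described further on. Capitals mark the pattern GGNNNTTCC on either strand, a loose form of the NF-kB site whose complement overlaps it where the match is a palindrome, and 18.5% of 32851 promoters of this length held it.
Icam1, chr9:21015690-21015989, + strand: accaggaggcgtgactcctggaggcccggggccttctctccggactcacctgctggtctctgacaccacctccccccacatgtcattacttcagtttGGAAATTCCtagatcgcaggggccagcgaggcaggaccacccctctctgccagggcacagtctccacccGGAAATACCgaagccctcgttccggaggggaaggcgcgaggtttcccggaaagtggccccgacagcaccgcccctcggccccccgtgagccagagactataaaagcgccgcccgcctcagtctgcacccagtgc
Selp, chr1:164115014-164115313, + strand: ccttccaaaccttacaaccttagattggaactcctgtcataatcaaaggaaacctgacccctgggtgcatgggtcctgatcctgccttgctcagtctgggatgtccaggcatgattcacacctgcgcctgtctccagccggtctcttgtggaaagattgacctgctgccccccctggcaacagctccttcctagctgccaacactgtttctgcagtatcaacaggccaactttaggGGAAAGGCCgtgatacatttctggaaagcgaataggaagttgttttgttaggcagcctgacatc
Sele, chr1:164047984-164048283, + strand: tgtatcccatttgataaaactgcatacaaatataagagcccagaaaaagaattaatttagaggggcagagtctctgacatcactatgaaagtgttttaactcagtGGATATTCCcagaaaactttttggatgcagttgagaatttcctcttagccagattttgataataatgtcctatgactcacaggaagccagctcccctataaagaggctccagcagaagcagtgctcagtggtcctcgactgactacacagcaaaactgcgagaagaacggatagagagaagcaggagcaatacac
Icam1 held 2 matches, GGAAATTCC at position -153 and GGAAATACC at -84. Positions count from the RefSeq start that set each window. For Icam1 the GENCODE start given below, 21015985, lies further downstream. Sele held 1 match, GGATATTCC at -145, and Selp 1 match, GGAAAGGCC at -14, whereas the Cd44 promoter held 0. The letters TATAAA, present in 13.6% of all promoters, were found in those of Icam1, at 13 after the RefSeq start, and Sele, at -49. A match describes letters and not binding.

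The 6 genes fell into 3 levels of abundance: Icam1 and Icam2 in most cells, Selp in a minority, and Vcam1, Sele and Cd44 in few. Icam1 (chr9:21015985-21028817) had reads in 82% of cells (interval 78.9 to 84.9%). Its level per cell ran from 0 through a median of 1.43 to a maximum of 85.6 reads per 10000. Icam2 (chr11:106377656-106388075) had reads in 77.4% (74 to 80.6%), with a median of 1.14 and a maximum of 12.8 reads per 10000. Icam1 was thus the more uneven of the pair. The 10% of cells with the highest level held 52.5% of the summed Icam1 level and 37.9% of the summed Icam2 level.

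**Figure D1:**
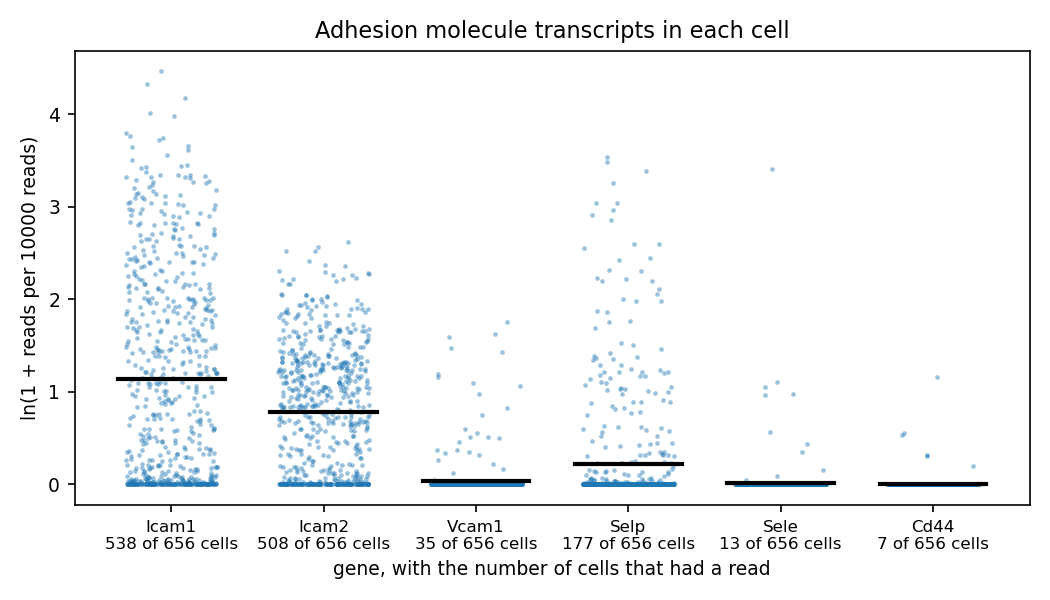
Natural log of 1 plus reads per 10000 reads (vertical axis) for each of the 6 genes (horizontal axis); each point is 1 cell and each bar is the mean. Icam1 spread up to 4.46 and Icam2 up to 2.62, while most cells lay at 0 for Selp and nearly all for Vcam1, Sele and Cd44.

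Selp (chr1:164115264-164150026) had reads in 27% of cells (23.6 to 30.6%), with a median over all cells of 0 and a maximum of 33.5 reads per 10000. Its signal was concentrated, since the top 10% of cells held 93.1% of the summed level. Vcam1 (chr3:116109949-116129688) had reads in 35 cells, 5.34% (3.74 to 7.34%), with at most 4.79 reads per 10000. Sele (chr1:164048234-164057677), which lies 57.6 kb from Selp on the same strand, had reads in 13 cells, 1.98% (1.06 to 3.36%). A single cell at 29.1 reads per 10000 held 76% of the summed Sele level, and the next cell was at 2.02. Cd44 (chr2:102811141-102901665) had reads in 7 cells, 1.07% (0.430 to 2.19%), and 6 of these had 1 to 3 reads. The shares of Vcam1, Sele and Cd44 all lay within the range of shares of the haematopoietic markers. A haematopoietic read was present in 17.1% of cells with Vcam1 against 25.3% of the others, and in 15.4% of cells with Sele against 25.04%.

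At 20000 reads per cell, Icam1 was found in 59.7% of cells (55.5 to 63.7%) and Icam2 in 64.3% (60.2 to 68.2%), so the order of the pair by share turned and the intervals overlapped. Selp fell to 15.1% (12.3 to 18.4%), Vcam1 to 2.99%, Sele to 1.23% and Cd44 to 0.880%. Between the quartile of cells with the fewest reads and that with the most, the unthinned share of Icam1 went from 73.2 to 92.1% and that of Icam2 from 63.4 to 90.2%.

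**Figure D2:**
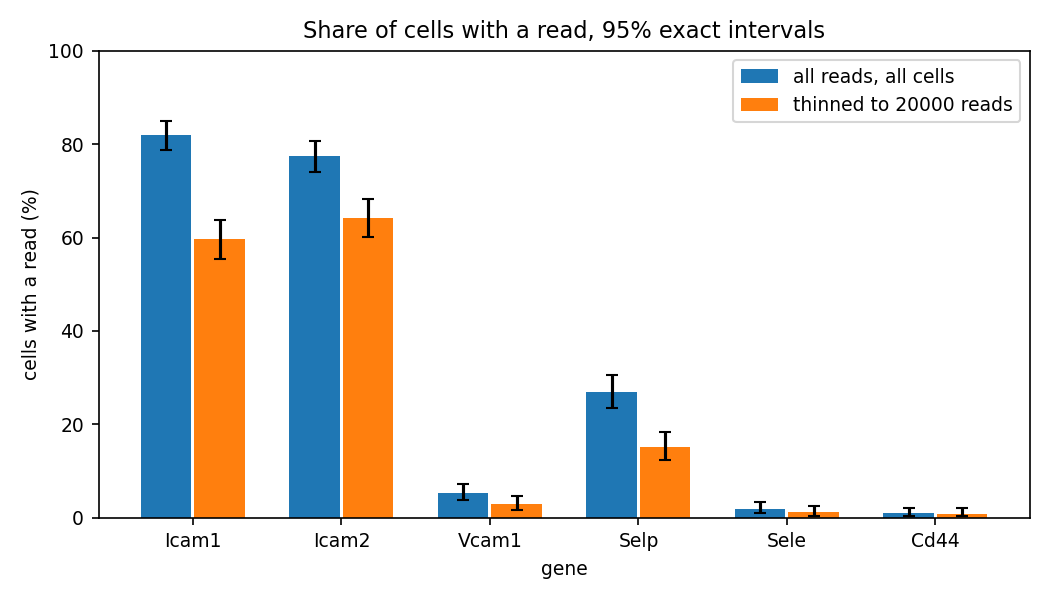
Percent of cells with a read (vertical axis, from 0) of each gene (horizontal axis) with all reads and after thinning to 20000 reads; error bars are exact 95% intervals. Icam1 led Icam2 with all reads, 82 against 77.4%, and followed it after thinning, 59.7 against 64.3%.

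Levels between genes were compared as mean reads per 10000 divided by exon length in kb. Icam1 stood at 1.23 per kb, Icam2 at 0.941, Selp at 0.171, Sele at 0.02001, Vcam1 at 0.00670 and Cd44 at 0.00103. Icam1 exceeded Icam2 by 1.30 times, and the pair did not differ beyond the counting error of their thinned shares. On the mean of natural logs their order turned, with Icam2 at 0.621 and Icam1 at 0.486 per kb. Icam2 exceeded Selp by 5.51 times, and their thinned shares were far apart. Sele exceeded Vcam1 only through its 1 high cell, without which it stood at 0.00481 per kb, and Cd44 without its highest cell stood at 0.000537. Divided by the longest transcript in place of all exons, Icam1 stood at 2.11, Icam2 at 1.40, Selp at 0.219, Sele at 0.02001, Vcam1 at 0.0145 and Cd44 at 0.00124 per kb.

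Most cells carried 1 to 3 of the 6 transcripts. With all reads, no member was detected in 3.96% of cells, 1 in 22.6%, 2 in 49.8%, 3 in 22.1%, 4 in 1.37% and 5 in a single cell. After thinning, no member was detected in 13.9% of cells, 1 in 38.9%, 2 in 37.5% and 3 in 8.63%. With all reads, Icam1 and Icam2 were found together in 65.2% of cells, Icam1 alone in 16.8%, Icam2 alone in 12.2% and neither in 5.79%. After thinning, both were found in 40.8%, Icam1 alone in 18.8%, Icam2 alone in 23.4% and neither in 16.9%. The order of the single-gene groups thus turned, and their intervals overlapped at either depth. The levels of Icam1 and Icam2 were close to unrelated across cells, with a Spearman's rho of 0.02 over cells that share a pool and differ in depth. Within the 5 clusters described below this rho ran from -0.04 to 0.06, and within 12 runs of 96 consecutive cell numbers from -0.12 to 0.25.

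Over the whole pool, Icam1, but not Icam2, varied with a list of 15 NF-kB response genes. Across all cells the rho of Icam1 with the list's mean level was 0.50, against -0.06 for Icam2, 0.16 for Selp, 0.12 for Vcam1, 0.05 for Sele and 0.02 for Cd44. After thinning it was 0.51 for Icam1. The genes nearest to Icam1 among 9666 candidates were Nfkbia, the NF-kB inhibitor IkBa, at 0.44, Irf1, an interferon-regulatory transcription factor, at 0.42, and Sbno2 at 0.41. Over the list, 14 of 15 genes had a rho above 0 with Icam1, with a median of 0.13, and 8 of 15 exceeded 0.11, the 95th percentile over all genes, whose median was 0.01. Nfkbiz reached 0.37, Rel 0.27 and Bcl3 0.24, while Tnfaip2 stood at -0.03 and Csf1 at 0.03. For Icam2, 6 of 15 were above 0, with a median of -0.01 against 0.04 over all genes. Of all genes, 55.7% had a rho above 0 with Icam1 and 80.5% with Icam2.

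**Figure D3:**
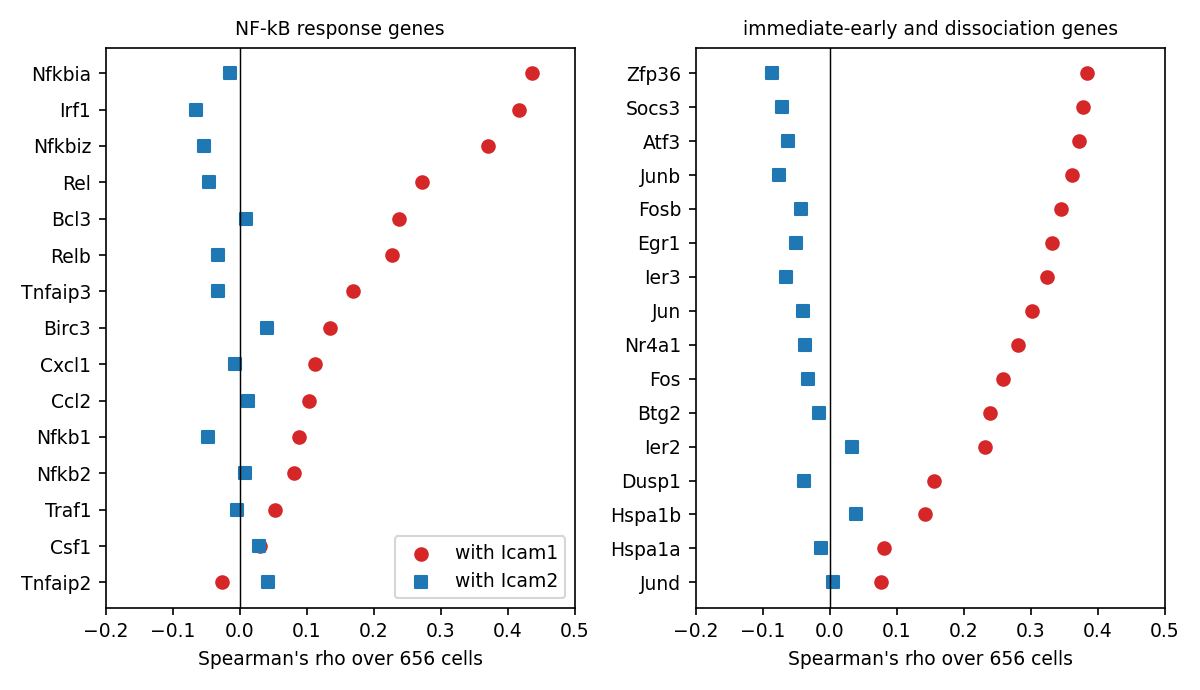
Spearman's rho across cells (horizontal axis) of each gene of the NF-kB list (left) and the immediate-early and dissociation list (right) with Icam1 (circles) and Icam2 (squares). Icam1 reached 0.44 on the left and 0.38 on the right, whereas Icam2 stayed between -0.09 and 0.04.

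Ranked by NF-kB score and split into quartiles at 20000 reads, cells of the lowest quartile had Icam1 reads in 32.2% of cases (24.6 to 40.5%), those of the second in 55.3%, those of the third in 66.9% and those of the highest in 84.5% (77.5 to 90.03%). The mean Icam1 level went from 0.948 to 3.16, 5.64 and 11.1 reads per 10000. Icam2 showed no such order, with shares of 57.3, 71.6, 68.3 and 59.9% and mean levels of 1.99, 2.09, 1.55 and 1.42 reads per 10000. Selp reads were found in 7.69% (3.90 to 13.3%), 12.1%, 16.9% and 23.9% (17.2 to 31.8%) of cells. Of the 7 cells with Sele reads at this depth, 4 lay in the third and 3 in the highest quartile.

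**Figure D4:**
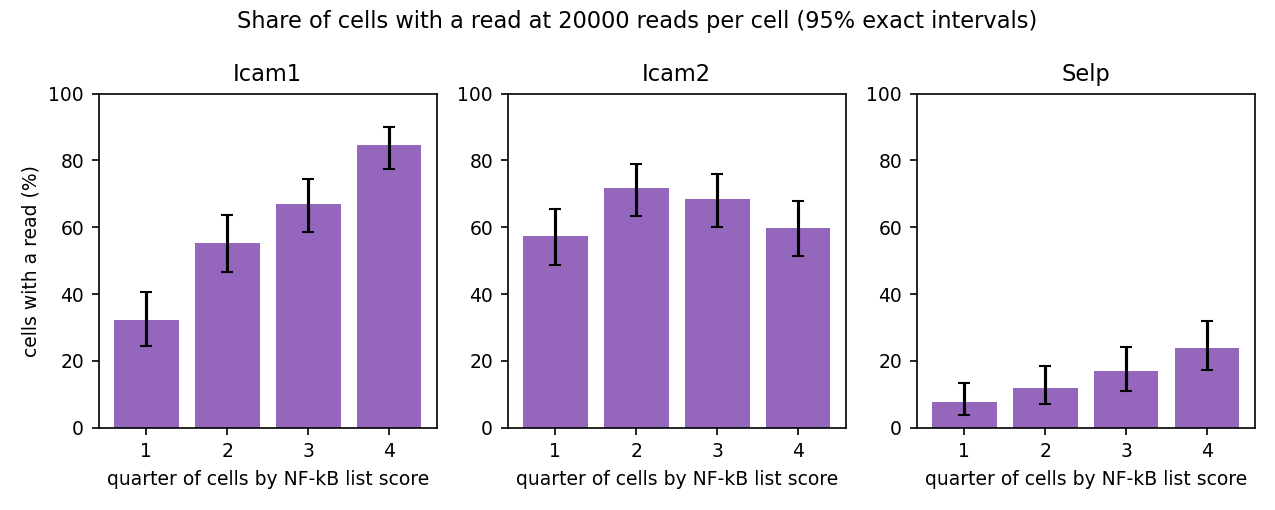
Percent of cells with a read at 20000 reads per cell (vertical axes, from 0) in quartiles of cells by NF-kB list score (horizontal axes); error bars are exact 95% intervals. Icam1 went from 32.2 to 84.5% and Selp from 7.69 to 23.9%, while Icam2 was 57.3% in the lowest and 59.9% in the highest quartile.

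The relation of Icam1 to the NF-kB score was seen in each cluster, with a rho of 0.23 to 0.60, and in each run, with a rho of 0.19 to 0.60. The rho of Icam2 with that score took both signs, from -0.17 to 0.26 by cluster and from -0.31 to 0.24 by run. In the small cluster 5 the rho of Icam2 exceeded that of Icam1 (0.26 against 0.23). The list of 16 immediate-early and dissociation genes, such as Fos, Junb, Zfp36 and Atf3, moved with Icam1 too. All 16 had a rho above 0 with Icam1, as did 55.7% of all genes. Their median was 0.29, and 14 of 16 exceeded the 95th percentile over all genes. The list score had a rho of 0.39 with Icam1 and of 0.61 with the NF-kB score. Its rho with Icam1 was 0.21 to 0.48 by cluster and 0.11 to 0.62 by run. It exceeded that of the NF-kB score in cluster 5 (0.29 against 0.23), run 7 (0.38 against 0.19) and run 10 (0.62 against 0.59). With the other score held by partial correlation, the rho of Icam1 was 0.36 with the NF-kB score and 0.12 with the immediate-early score. The tissue had been digested with enzymes before sorting, and the part of that step in these values was not tested. Interferon genes did not share the relation: the 22 type I interferon genes had a median rho of 0.01 with Icam1.

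At 20000 reads, 26 of all listed genes had intervals apart between cells with and without Icam1, each higher with Icam1. The number of genes compared is given with the processing below. Only listed genes were compared, so no share over all genes stands beside the 26. Among the thinned cells, Icam1 had a rho of 0.15 with the number of detected genes. Icam2 had a rho of 0.21 with that number and 6 listed genes apart, each higher with Icam2. The part of detected genes in these counts was not tested. Irf1 was found in 77.9% of cells with Icam1 and 52% of those without. Likewise Tnfaip3, an inhibitor of NF-kB signalling, was found in 13.6 and 4.37%, the chemokine gene Ccl2 in 12.98 and 4.37%, and Cxcl1 in 15 and 5.68%. Receptors upstream of NF-kB were present at mixed shares: the TNF receptor Tnfrsf1a in 81.2% of cells, Ltbr in 46.5%, Tnfrsf1b in 18.4% and Il1r1 in 8.54%. Of the 11 receptors in that list, 0 exceeded the 95th percentile of rho with Icam1 over all genes with all reads. After thinning 1 did, Il4ra at 0.124 against 0.114. The mean level of the receptor list had a rho of 0.14 with Icam1.

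The nearest genes of Icam2 were the endothelial genes Thbd (thrombomodulin) at 0.26, Tek (TIE2) at 0.25 and Cavin3 at 0.21. Only 7 of its 20 nearest genes were kept after thinning, against 18 of 20 for Icam1. Junction genes that guide leukocyte passage were widespread: Pecam1 had reads in 99.2% of cells, F11r (JAM-A) in 98.8%, Cdh5 (VE-cadherin) in 96.8%, Cd47 in 99.5% and Nectin2 in 92.8%, whereas Jam2 had reads in 2.74% and Alcam in 8.38%. At 20000 reads Cdh5 was found in 97.8% of cells with Icam2 and 89.2% of those without. The leukocyte counter-receptors were rare, with Itgal in 0.762%, Itgb2 in 5.34%, Selplg in 1.68% and Itgax in 0 (3 counts would make 0.457%, exact upper limit 0.561%).

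Clustering without the 6 genes gave 5 clusters. Cluster 2 (30.9% of cells) was Ptx3+ capillary-like by its markers and cluster 4 (11.6%) upstream valve-like. Clusters 1 (36.9%, led by Ahsg, Ackr4 and Clu), 3 (15.9%, led by Tppp3, Fbln7 and Fndc1) and 5 (4.73%, with a median of 2894 detected genes) stayed unnamed. A cluster against the other cells is a description, read against the share of all 9666 genes found in at least 10% of cells that were past 1.5-fold either way. Icam1, Icam2 and Selp were among those genes.

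Selp marked cluster 2 most clearly. In cluster 2, 1 of the 3 genes, Selp, was past 1.5-fold, where 10.5% of all genes were, with a mean 5.60 times that of the other cells. It had reads in 45.3% of the cells there, against 16.1 to 20.2% in the other clusters. At 20000 reads the share was 33.7% (26.5 to 41.6%) in cluster 2, against 10.5% (6.74 to 15.3%), 2.30% (0.280 to 8.06%), 4.41% (0.919 to 12.4%) and 3 of 30 cells (2.11 to 26.5%) in clusters 1, 3, 4 and 5. The interval of cluster 2 lay above those of clusters 1, 3 and 4 and met that of the small cluster 5.

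In cluster 1, 1 of 3 genes, Selp at 0.268 times the other cells, was past 1.5-fold, where 8.12% of all genes were. In cluster 3 it was 2 of 3, Icam1 at 0.585 and Selp at 0.181 times, where 13.2% of all genes were. None of the 3 was past it in cluster 4, with 17.1% of all genes, and all 3 were lower in cluster 5, with 50.8%. Leaving aside cluster 5, the thinned share of Icam1 was between 57.4 and 63.2% and that of Icam2 between 58.9 and 71.8%, so both were spread over the clusters. Cluster 5 had a thinned share of 33.3% for Icam1 and 6 of 30 cells for Icam2.

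**Figure D5:**
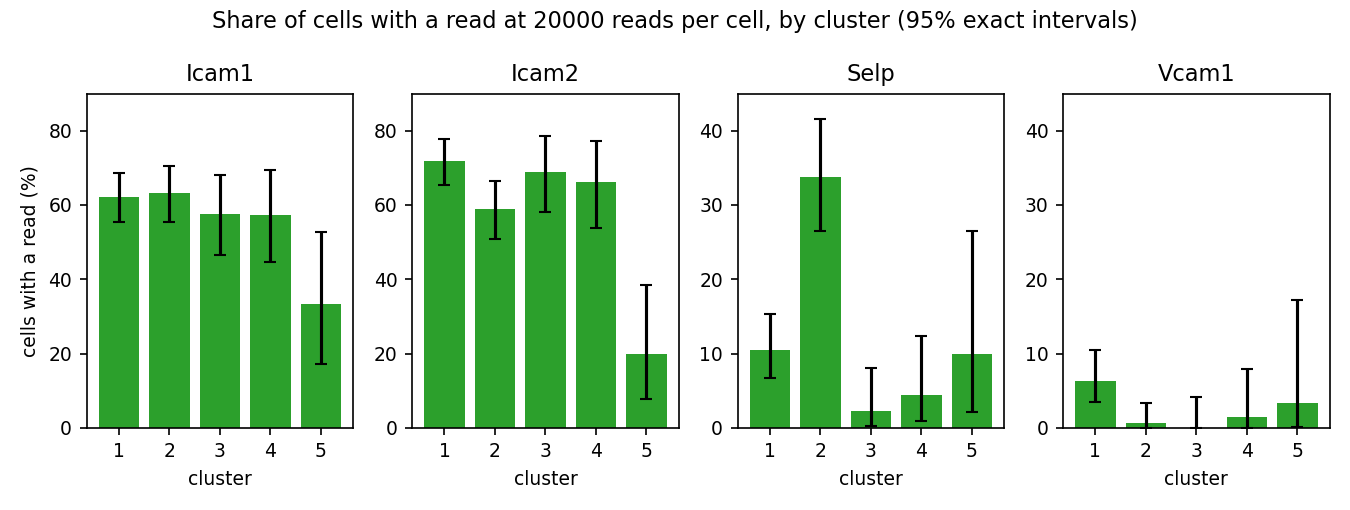
Percent of cells with a read at 20000 reads per cell (vertical axes, from 0, scaled to 90% for Icam1 and Icam2 and to 45% for Selp and Vcam1) in clusters 1 to 5 (horizontal axes); error bars are exact 95% intervals. Selp stood at 33.7% in cluster 2 and at most 10.5% elsewhere, whereas Icam1 was at 57.4 to 63.2% in clusters 1 to 4.

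The gene nearest to Selp was Stab2, the scavenger receptor for hyaluronan, at a rho of 0.34, followed by Gm525 at 0.32 and Thbs1 (thrombospondin 1) at 0.29. At 20000 reads, Selp was found in 34.1% of cells with Stab2 (27 to 41.8%) and in 7.04% of those without (4.73 to 10.01%). The difference was also seen inside cluster 2, with 41% (32 to 50.5%) and 15.2% of 46 cells (6.34 to 28.9%). Over all clusters, Ptx3 was found in 23.3% of cells with Selp and 7.47% of those without. The blood endothelial marker Plvap was found in 72.1% (61.4 to 81.2%) and 49.2% (44.6 to 53.7%), and the sialomucin Podxl in 59.3 and 82.6%. Inside cluster 2 these shares were 34.5 and 22.2% for Ptx3, 74.5 and 67.6% for Plvap, and 56.4 and 67.6% for Podxl. There the intervals overlapped for each of these genes.

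P-selectin is also made by blood endothelium and platelets. At 20000 reads Flt1 was found in 1 of 86 cells with Selp and 1.45% of those without, Ackr1 in 0 of 86 and 1.87%, Vwf in 5.81 and 4.98%, and Emcn in 89.5 and 89.2%. Of the same blood endothelial list, Aqp1 was found in 87.2% of cells with Selp (78.3 to 93.4%) and 71.6% of those without (67.3 to 75.6%). Plvap was likewise more frequent. Inside cluster 2 Aqp1 was found in 100 and 91.7%, with overlapping intervals. For the 0 of 86, 3 counts would make 3.49% and the exact upper limit was 4.20%. Flt4 reads were present in all cells with Selp, Prox1 reads in 98.3% of them and reads of a platelet marker in 5.08%. With all reads, a haematopoietic read was present in 33.9% of the cells with Selp (27 to 41.4%) and in 21.5% of the others (17.9 to 25.5%), but the former were deeper, with a median of 245682 against 123261 reads. At 20000 reads the most frequent of these markers, Fcer1g, was found in 11.6% (5.72 to 20.3%) and 6.43% (4.41 to 9.01%), and without all cells with such a read the Selp share was 23.7%. Across runs the thinned Selp share ran from 4.26% to 6 of 20 cells with a median of 13.3%, and the intervals of all 66 pairs of runs overlapped.

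Of the 15 pairs of members, Selp and Sele had the highest rho, 0.14 with all reads and 0.24 after thinning, although Icam1 and Selp led by 0.131 to 0.129 once ranks were centred within clusters. At 20000 reads Sele was detected in 6 of 86 cells with Selp, 6.98% (2.60 to 14.6%), and in 1 cell without, 0.207% (0.00525 to 1.15%). The other 14 pairs ran from -0.06 to 0.12 with all reads, with Icam1 and Selp at 0.12. All 13 cells with Sele also had Icam1, Prox1 and Flt4 reads, and 8 had Selp. The 1 high cell, with 58 Sele reads of 19957, lay in cluster 4 and had 50 Icam1 reads and 0 Selp reads. Its depth kept it out of the thinned values. The gene nearest to Sele was Cd14, at 0.23, over few cells with reads.

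Vcam1 was placed mostly in cluster 1, which held 25 of its 35 cells. Its thinned share was 6.36% there (3.52 to 10.4%) and 0.613% in cluster 2 (0.0155 to 3.37%), and it was found in 0 of 87 cells of cluster 3. All 35 cells had Prox1 and Flt4 reads, 29 had Icam1, 1 had Flt1, 2 had Ackr1 and 5 had a read of a platelet marker. At 20000 reads the platelet gene Itga2b was found in 2 of 17 cells with Vcam1 and 0.544% of the others. With all reads, the mean natural log value of the 6 fibroblast markers was 0.173 in cells with Vcam1 and 0.0495 in the others. The parts of platelet and fibroblast RNA in the Vcam1 values were not tested. Of all listed genes compared at 20000 reads between the 17 cells with Vcam1 and the others, 3 had intervals apart. The number of genes compared is given with the processing below. Genes outside the lists were not compared, so this count has no share over all genes beside it. Birc3, an NF-kB target that inhibits apoptosis, was found in 52.9% (27.8 to 77.02%) and 17.6%, Csf1 in 47.1% (23 to 72.2%) and 15.4%, and Mrc1 in 5.88% (0.149 to 28.7%) and 37.4%. Every gene of the NF-kB list other than Birc3 and Csf1 had overlapping intervals, among them Tnfaip2, found in 5.88 and 15.8%. Vcam1 had reads in 0 to 13.9% of cells by run, and in 2 runs it had 0.

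Cd44 contrasted with the hyaluronan receptor genes Lyve1 and Stab2. Lyve1 had reads in 95.9% of cells and Stab2 in 47%, against 1.07% for Cd44. Of other genes listed with them, Stab1 had reads in 99.8% and the hyaluronidase Hyal2 in 74.4%. All 7 Cd44 cells had Prox1 and Flt4 reads and 0 had Ptprc, but 5 of 7 had a read of a haematopoietic marker (71.4%, 29 to 96.3%), against 24.3% of the other cells (21.1 to 27.8%). Of the cells with no haematopoietic read, 0.406% had Cd44. With all reads, the mean natural log value of the 6 fibroblast markers was 0.415 in cells with Cd44 and 0.0523 in the others. The rho of this value with Cd44 over all cells was 0.02. After thinning, 2 listed genes had intervals apart. Vcan was found in 2 of 5 cells with Cd44 and 0.355% of the others, and Emcn in 2 of 5 and 89.7%. The part of fibroblast RNA in the Cd44 values was not tested. The moesin gene Msn, whose product links ICAMs and CD44 to actin, had reads in 97.4% of cells, and the sheddase genes Adam10 and Adam17 in 86.4 and 45.3%.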

How the data were processed

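The authors sorted single LECs into plates, made Smart-seq3 libraries, aligned reads to mm10 with STAR, counted them with featureCounts (Subread) and normalised them in Seurat 4.1.0, per the submitters' processing notes; their methods discard cells with under 2000 genes or over 10% mitochondrial reads. The deposited values were read as the natural log of 1 plus reads per 10000: their exponentials minus 1 summed to 10000 in each cell, although the methods describe log2. Of 1152 labelled cells, 656 were analysed and 496 were not; 568 were thinned. Icam1 had reads in 538 cells, Icam2 in 508 and Selp in 177, and clusters 1 to 5 held 242, 203, 104, 76 and 31 cells. Dividing by a cell's lowest non-zero linear value turned 100% of values into whole reads (tolerance 0.01). A median of 83.8% of the values above 0 per cell were even, so most reads came as pairs, and reads are not molecules.

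Members and gene lists, and the limits for naming clusters, were chosen with earlier results of these data known. The named genes were the 6 members, the listed genes, the 3 nearest genes of each member by Spearman's rho among genes in at least 10% of cells, and the leading genes of clusters. The partial correlations, score quartiles, promoter pattern, Selp by Stab2 and the cells of rare members were added after values were seen. Clusters were rebuilt in Seurat 5.3.0 (R 4.3.3) from 2000 variable genes without the members, on 15 principal components, at the lowest resolution giving 5 clusters (0.7). A marker was raised at a linear mean 1.5 times that of other cells, with 0.1 per 10000 added, in at least 10% of the cluster, and a name needed 3 raised markers, more than any other class and no rival class ahead of it in the 10 leading genes. Names need not match those of the study. Doublets were not called, each well holding 1 sorted cell. Exact Clopper-Pearson intervals used scipy 1.17.1. Exon lengths and gene positions came from GENCODE M21 (GRCm38). Recovery of reads, thinning, the clusters and the fold calls were checked on simulated data; the correlations were not. With 1 pool and no animal label, no p-value was computed. Between cells with and without a member, 179 distinct listed genes were compared at equal depth.

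Of the listed genes, Marco, Slc26a4, Itgam, Ppbp, Gp1bb, Treml1, Cdh1, Krt5, Krt14, Cd99, Icam4, Madcam1, Hmmr, Cemip2, Nherf1, Nherf2, Spn and Mx1 were not analysed here. Alternatives changed depth, the read minimum, the cells used, gene length, cluster settings and the centring of correlations.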

Additional observations from a re-analysis of the deposited data

How the results depend on the processing

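Shares depended on depth and on what counts as detected. Thinning to 20000 reads gave 59.7% for Icam1, 64.3% for Icam2, 2.99% for Vcam1 and 15.1% for Selp. Counting read pairs thinned to 10000, a choice made after seeing the data, gave 54.8, 55.7, 3.16, 13.4 and, for Sele, 0.879%. A minimum of 1 read per 10000, also added later, gave 53.5% for Icam1, 52.4% for Icam2, 1.83% for Vcam1, 11.6% for Selp, 0.762% for Sele and 0.152% for Cd44. Without the 25% of cells with the fewest reads, Icam1 was 84.96% and Icam2 82.1%. A minimum of 2 reads gave 21.3% for Selp, and leaving out cells with a haematopoietic read gave 0.406% for Cd44. The range over clusters was the highest cluster mean of a gene divided by its lowest, each with 0.1 per 10000 added. The median of this range over the members was 3.84, and 1.61 with a pseudocount of 1. For Sele the range was 4.82, with 1 cell behind its level in cluster 4, and 1.25 on thinned reads. The median rho of the 15 pairs was 0.0197, and 0.046 after thinning. The rho of Icam1 and Icam2 was 0.0197, then 0.0091 after thinning, 0.0129 on ranks regressed on detected genes and -0.0123 on ranks centred within clusters. The rho of Icam1 with the immediate-early list was 0.39, and 0.12 with the NF-kB score held. The causes were not tested. Selp remained highest in cluster 2 with read pairs, at 30.7% (23.7 to 38.4%). No paired analysis was possible because the labels give 1 group.

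The data hold 1 pool of aged mice, so differences between animals were not measured, and shares under a few percent rest on 7 to 35 cells.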
